A study of Mus musculus with 9 samples.

Results

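The genes described here make cholesterol, control its synthesis, move it into and within the cell and carry it out again. They were taken by symbol from a list of 32 genes. All 32 were found among the 16070 rows of the table, and all 32 were among the 11850 genes that were tested, which had to reach 1 FPKM in 3 or more libraries. FPKM is a fragment count scaled by transcript length and by library size. RNA came from mouse embryos of the C57BL/6 background, grown in vitro to 4.5 days after microinjection, which is about the late blastocyst. There were 3 libraries from wild-type (WT) embryos, 3 labelled as carrying a substitution of arginine 17 of histone H3 by histidine (H3R17H) and 3 labelled as lacking the histone arginine methyltransferase Carm1 (Carm1-/-). The series title gives CRISPR-Cas9 editing as the source of the changed genotypes and Yap signalling as its subject. The labels give E4.5 embryos as the source, and their extraction text speaks of cDNA from a single cell of such embryos. They do not say which libraries came from separate embryos, so p-values measure only the spread between these libraries, which may be technical.

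The labels and the Carm1 values did not match. Carm1 (chromosome 9, 21546894 to 21592623, plus strand, GRCm38) ranged from 6.65 to 8.86 FPKM in WT, from 0.02 to 1.88 FPKM with the label H3R17H and from 6.44 to 12.68 FPKM with the label Carm1-/-. The columns of the libraries labelled H3R17H are themselves headed Carm, and those of the libraries labelled Carm1-/- are headed Hist. Groups are therefore named by their label throughout, and each direction belongs to the label. The libraries also differed in sex-linked transcripts. Those of 4 Y-linked genes summed to 30.7 to 35.8 FPKM in WT, to 36.6 FPKM in replicate 1 labelled H3R17H and to 28.1 FPKM in replicate 1 labelled Carm1-/-. In replicates 2 and 3 of both labels they summed to at most 0.01 FPKM. The X-linked RNA Xist was at 0.19 to 0.43 FPKM in WT and at 0.26 FPKM in replicate 1 labelled Carm1-/-. In replicates 2 and 3 of both labels Xist was at 16.58 to 32.54 FPKM. Replicate 1 labelled H3R17H lay between, at 4.84 FPKM, so its sex is not plain. Pearson's r between libraries of a group, taken across genes, was 0.957 to 0.968 in WT, 0.932 to 0.942 in the group labelled H3R17H and 0.853 to 0.905 in the group labelled Carm1-/-.

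Cholesterol is built from acetyl-CoA. The early enzymes join acetyl units into mevalonate, turn mevalonate into isoprene units and join these into squalene, and the late enzymes close squalene into a ring and trim the ring to cholesterol. The transcription factors of the SREBP family (Srebf1, Srebf2) switch these enzymes on. When sterol is plentiful the Insig proteins hold SREBP and its escort Scap in the endoplasmic reticulum, and when it is scarce SREBP is released to the nucleus, where it also raises Insig1 itself. The liver X receptors (Nr1h2, Nr1h3) sense oxidised sterols and turn on export through transporters such as Abca1 and Abcg1. In the embryo cholesterol serves cell membranes and is attached to hedgehog signalling proteins, and loss of Dhcr7 or other late enzymes causes malformation.

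In the WT embryos the pathway was expressed over a wide range of levels. Fdps was highest at 211 ± 7.14 FPKM (SD, n = 3), above 95.8% of the tested genes, and was followed by the lysosomal sterol carrier Npc2 at 148 ± 7.94 FPKM, Ebp at 137 ± 30.3 FPKM and Acat2 at 106 ± 33.8 FPKM. Another 13 genes ran from Pmvk at 68.1 ± 15.2 FPKM down to Npc1 at 15.1 ± 4.35 FPKM. Neighbours in the order of means overlapped in their WT libraries all the way down, except for Fdps above Npc2, Pmvk above Nr1h2 and Hmgcs1 above Nsdhl. The regulators Srebf1 and Srebf2 were low, at 3.97 ± 1.05 and 3.36 ± 0.855 FPKM. The efflux transporter Abca1 was lowest, at 0.385 ± 0.309 FPKM, above 2.81% of the tested genes, and Nr1h3 was at 0.804 ± 1.08 FPKM and listed at 0 in 1 WT library. Nr1h2, the other liver X receptor, was at 38.6 ± 14.3 FPKM. The median coefficient of variation of the 32 genes was 29.0% in WT, 30.7% with the label H3R17H and 41.9% with the label Carm1-/-, beside 24.7%, 32.3% and 45.5% over all tested genes. Hmgcs1 and Fdps were the steadiest in WT, at 3.92% and 3.38%.

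**Figure D1:**
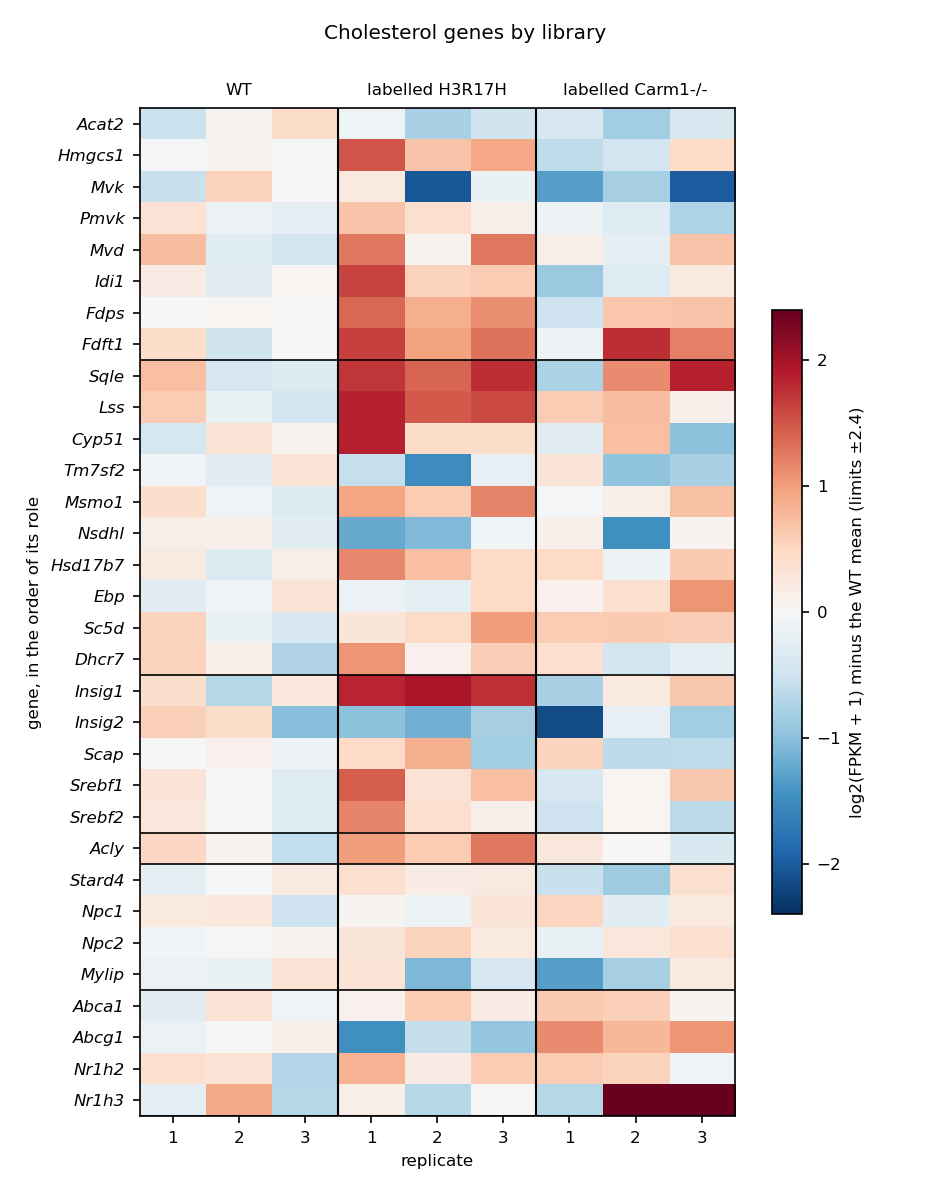
Each of the 32 genes (rows, in the order of their roles, separated by lines) in each of the 9 libraries (columns), as log2(FPKM + 1) minus the mean of the 3 WT libraries; red is higher and blue lower than WT. Insig1, Sqle, Lss and Fdft1 are red in all 3 libraries labelled H3R17H, and Abcg1 is blue there and red in all 3 libraries labelled Carm1-/-.

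Setting the label H3R17H against WT asks what that edit changes in the embryo, if the label holds. Most synthesis enzymes, Insig1, Srebf1 and Acly had higher values in these libraries, by 1.9 to 3.5 times for those whose libraries did not overlap with WT, and the efflux transporter Abcg1 had lower values. Of the 32 genes 24 had higher and 8 lower values, with a median difference of 0.56 on the log2(FPKM + 1) scale, beside 47.7% higher and a median of -0.03 over all tested genes. In 13 of the 32 all 3 libraries labelled H3R17H lay above all 3 WT libraries, beside 13.3% of all tested genes. In 1, Abcg1, all lay below, beside 15.6% of all tested genes. The list was chosen with earlier results of these data known, so these shares are description and no test. None of the 32 passed the test. In limma with Benjamini-Hochberg adjustment over 11850 genes, 0 genes (0%) had an adjusted p under 0.05 in this comparison, while 759 higher and 918 lower genes had an unadjusted p under 0.05, among them 9 higher and 1 lower of the 32. An exact permutation of 3 against 3 libraries could not give a two-sided p under 0.1.

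The early enzymes lead from acetyl-CoA to squalene, and 6 of 8 had higher values in the libraries labelled H3R17H, with a median difference of 0.90. Hmgcs1 (chromosome 13, 119690379 to 119708260, plus strand, GRCm38), which condenses acetyl-CoA with acetoacetyl-CoA, measured 21.6, 23.1 and 21.6 FPKM in replicates 1, 2 and 3 of WT. It measured 65.0, 36.0 and 43.1 FPKM with the label H3R17H and 14.1, 15.9 and 31.0 FPKM with the label Carm1-/-. All 3 libraries labelled H3R17H were above every other library, and those labelled Carm1-/- lay on both sides of WT. The difference from WT was 1.04 (SE 0.33, limma adjusted p = 0.247). Idi1 (chromosome 13, 8885501 to 8892451, plus strand), which interconverts the isoprene units, was at 3.72, 2.44 and 3.26 FPKM in WT, at 11.6, 5.02 and 5.29 FPKM with the label H3R17H and at 1.21, 2.32 and 3.85 FPKM with the label Carm1-/-. The highest of the 9 values was again replicate 1 labelled H3R17H, and the difference was 0.93 (SE 0.41, adjusted p = 0.347, limma).

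Fdps (chromosome 3, 89093588 to 89101959, minus strand), farnesyl diphosphate synthase, was at 214, 217 and 203 FPKM in WT, at 548, 387 and 459 FPKM with the label H3R17H and at 149, 336 and 341 FPKM with the label Carm1-/-. The libraries labelled H3R17H were above all others, and replicate 1 labelled Carm1-/- was below WT while replicates 2 and 3 were above it. The difference between H3R17H and WT was 1.12 (SE 0.30, limma adjusted p = 0.224). Fdft1 (chromosome 14, 63145150 to 63179578, minus strand) makes squalene, the first compound committed to sterols. It was at 20.5, 10.4 and 15.1 FPKM in WT, at 48.5, 29.8 and 37.8 FPKM with the label H3R17H and at 13.5, 53.2 and 35.5 FPKM with the label Carm1-/-. Its libraries labelled H3R17H were all above WT, by 1.30 (SE 0.45, limma adjusted p = 0.274). Fdft1 shares 18.3% of its exon bases with Ctsb on the opposite strand and Fdps 26.7% with the gene model Gm43738 on the same strand (GENCODE M21). Whether the counting used strand is not given in the sources used here, so these reads cannot be assigned with certainty. The mean of Ctsb was 69.3 ± 3.75 FPKM in WT, 69.8 ± 24.7 FPKM with the label H3R17H and 102 ± 18.7 FPKM with the label Carm1-/- (SD, n = 3).

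The other 4 early enzymes overlapped with WT. Mvd, the decarboxylase of the mevalonate pathway, ranged from 11.99 to 28.3 FPKM in WT and from 17.9 to 41.7 FPKM with the label H3R17H. Pmvk, a mevalonate pathway kinase, ranged from 58.0 to 85.7 and from 74.1 to 108 FPKM. Mvk, the kinase before it, went from 14.1 to 31.4 FPKM in WT and from 4.37 to 25.1 FPKM with the label H3R17H. Acat2, which makes acetoacetyl-CoA, went from 70.8 to 138 and from 59.0 to 94.4 FPKM, so both had lower means there. The mouse genome holds a close relative of Acat2 beside it, Acat3, which was at 0.636 ± 0.111 FPKM in WT (SD, n = 3).

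Hmgcs1 and Idi1 are shown with their promoter windows as early enzymes whose libraries labelled H3R17H stood apart from both other groups. Fdps did so as well and is not shown. Each window runs from 250 bases before to 50 after a RefSeq gene start (GRCm38.p6), plus strand, at chr13:119690101-119690400 for Hmgcs1 and chr13:8885356-8885655 for Idi1. Capitals mark matches on either strand to 4 strings of letters: the core of the sterol response element bound by SREBP (TCACNCCAC), a looser form of it (TCANNCCAC, which contains every match of the core), the CCAAT box and the GC box GGGCGG. Hmgcs1 holds the core in 1 place, with 4 CCAAT boxes and 3 GC boxes, and Idi1 holds 2 CCAAT boxes and 1 GC box.
Hmgcs1: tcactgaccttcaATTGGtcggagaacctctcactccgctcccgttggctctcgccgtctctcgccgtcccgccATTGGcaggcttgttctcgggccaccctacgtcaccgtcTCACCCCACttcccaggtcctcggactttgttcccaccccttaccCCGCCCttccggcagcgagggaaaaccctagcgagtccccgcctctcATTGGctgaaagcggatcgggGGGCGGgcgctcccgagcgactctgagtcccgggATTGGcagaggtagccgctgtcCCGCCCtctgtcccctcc
Idi1: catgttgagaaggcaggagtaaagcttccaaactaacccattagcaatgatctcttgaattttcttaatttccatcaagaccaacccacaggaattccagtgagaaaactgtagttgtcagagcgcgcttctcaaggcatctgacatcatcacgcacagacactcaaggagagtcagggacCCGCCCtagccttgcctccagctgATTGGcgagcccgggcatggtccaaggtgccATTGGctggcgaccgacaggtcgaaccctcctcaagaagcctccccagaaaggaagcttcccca

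The late enzymes turn squalene into cholesterol, and 8 of 10 had higher values in the libraries labelled H3R17H, with a median difference of 0.68. Sqle (chromosome 15, 59315077 to 59331192, plus strand), squalene epoxidase, was at 27.0, 11.9 and 12.5 FPKM in WT, at 54.7, 43.4 and 57.3 FPKM with the label H3R17H and at 8.99, 36.2 and 60.5 FPKM with the label Carm1-/-. The libraries labelled H3R17H lay close together above WT, while those labelled Carm1-/- spread from the lowest to the highest of the 9 values. The difference from WT was 1.63 (SE 0.57, limma adjusted p = 0.276) for H3R17H. Lss (chromosome 10, 76531588 to 76557138, plus strand), lanosterol synthase, closes the sterol ring. It was at 9.16, 4.97 and 3.81 FPKM in WT, at 22.7, 17.4 and 18.8 FPKM with the label H3R17H and at 9.17, 10.1 and 6.25 FPKM with the label Carm1-/-. The 3 values with the label H3R17H were above all other 6, which overlapped with each other, and the difference from WT was 1.63 (SE 0.34, limma adjusted p = 0.175). Lss is shown as the late enzyme with the largest ratio of means to WT, 3.29. Its window lies at chr10:76531355-76531654 (plus strand) and holds 1 CCAAT box and 2 GC boxes, in capitals, and no match to either form of the sterol response element.
Lss: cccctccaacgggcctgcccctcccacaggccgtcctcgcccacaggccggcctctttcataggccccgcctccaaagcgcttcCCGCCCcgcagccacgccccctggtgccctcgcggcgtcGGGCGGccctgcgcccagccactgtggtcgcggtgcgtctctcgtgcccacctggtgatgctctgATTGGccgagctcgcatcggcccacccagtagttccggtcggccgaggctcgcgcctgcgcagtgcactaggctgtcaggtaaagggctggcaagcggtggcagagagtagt

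Cyp51, which takes a methyl group off lanosterol, was at 6.22, 11.3 and 9.32 FPKM in WT, at 34.5, 12.2 and 12.2 FPKM with the label H3R17H and at 7.14, 15.1 and 3.91 FPKM with the label Carm1-/-. Replicate 1 labelled H3R17H stood far above the rest, and replicates 2 and 3 were just above the highest WT library, with a difference of 0.92 (SE 0.50, limma adjusted p = 0.431). Msmo1, a sterol methyl oxidase, was at 35.6, 24.4 and 20.7 FPKM in WT, at 51.3, 40.3 and 61.2 FPKM with the label H3R17H and at 25.8, 29.2 and 43.5 FPKM with the label Carm1-/-. Its difference from WT was 0.91 (SE 0.29, limma adjusted p = 0.248) for H3R17H. Hsd17b7, a sterol ketoreductase, was low throughout, at 2.85, 1.63 and 2.67 FPKM in WT, at 6.42, 4.47 and 3.60 FPKM with the label H3R17H and at 3.62, 2.07 and 4.18 FPKM with the label Carm1-/-. The libraries labelled H3R17H did not overlap with WT (difference 0.78, SE 0.35, limma adjusted p = 0.353) and did overlap with those labelled Carm1-/-.

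The 5 remaining late enzymes overlapped with WT. Dhcr7, the last reductase of the pathway, ranged from 19.3 to 47.9 FPKM in WT and from 34.9 to 68.2 FPKM with the label H3R17H. Sc5d, a sterol desaturase, ranged from 2.39 to 5.53 and from 4.4 to 7.87 FPKM. Ebp, a sterol isomerase on the X chromosome, ranged from 112 to 171 and from 116 to 189 FPKM. The 2 late enzymes with lower means were Nsdhl, a dehydrogenase that is also X-linked, with 14.9 to 20.0 FPKM in WT and 7.26 to 17.3 FPKM with the label H3R17H, and Tm7sf2, a sterol reductase, with 1.71 to 3.15 and 0.15 to 1.87 FPKM. Tm7sf2 shares 12.1% of its exon bases with Vps51 on the same strand.

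The regulators differed in direction: Insig1 and Srebf1 stood above WT in every library labelled H3R17H, and Insig2 had the lower mean. Insig1 (chromosome 5, 28071363 to 28078662, plus strand), which retains SREBP and is itself an SREBP target, was at 34.4, 15.4 and 30.6 FPKM in WT, at 92.3, 102 and 87.5 FPKM with the label H3R17H and at 14.4, 29.8 and 40.4 FPKM with the label Carm1-/-. The lowest value with the label H3R17H was more than the highest of all 6 other libraries. The mean was 3.51 times that of WT, the largest ratio among the 32 genes, and the difference was 1.85 (SE 0.39, limma adjusted p = 0.175). Insig2, its relative, was at 11.1, 10.1 and 3.02 FPKM in WT, at 3.12, 2.64 and 3.67 FPKM with the label H3R17H and at 0.83, 6.14 and 3.55 FPKM with the label Carm1-/-. WT replicate 3 lay with the edited libraries for Insig2, and the groups overlapped. Insig1 is shown because it stood furthest from WT. Its window at chr5:28071162-28071461 (plus strand) holds 1 CCAAT box and 3 GC boxes, in capitals, and no match to either form of the sterol response element.
Insig1: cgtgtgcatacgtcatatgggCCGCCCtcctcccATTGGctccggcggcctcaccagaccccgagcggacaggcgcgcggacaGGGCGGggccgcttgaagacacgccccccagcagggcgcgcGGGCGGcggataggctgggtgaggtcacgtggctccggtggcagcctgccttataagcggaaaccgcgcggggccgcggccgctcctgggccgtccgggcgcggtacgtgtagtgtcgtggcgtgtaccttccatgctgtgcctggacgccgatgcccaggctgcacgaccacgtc

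Srebf1 (chromosome 11, 60199089 to 60222581, minus strand), the SREBP gene more tied to fatty acid synthesis, was at 5.05, 3.88 and 2.97 FPKM in WT, at 12.5, 5.22 and 7.04 FPKM with the label H3R17H and at 2.74, 4.03 and 6.63 FPKM with the label Carm1-/-. Replicate 2 labelled H3R17H was just above WT replicate 1, and the difference was 0.84 (SE 0.40, limma adjusted p = 0.365). Srebf2, the SREBP gene more tied to sterol synthesis, was at 4.18, 3.41 and 2.48 FPKM in WT, at 8.70, 4.71 and 3.69 FPKM with the label H3R17H and at 2.03, 3.43 and 1.79 FPKM with the label Carm1-/-. Its H3R17H and WT libraries overlapped. Scap, the escort of SREBP, ranged from 5.54 to 6.58 FPKM in WT and from 3.0 to 11.9 FPKM with the label H3R17H, on both sides of WT.

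Acly (chromosome 11, 100476353 to 100528000, minus strand) splits citrate to supply cytosolic acetyl-CoA for sterols and fatty acids. It was at 49.9, 37.1 and 22.9 FPKM in WT, at 71.3, 53.5 and 85.6 FPKM with the label H3R17H and at 42.4, 35.0 and 26.7 FPKM with the label Carm1-/-. Every library labelled H3R17H was above the other 6, and the difference from WT was 0.96 (SE 0.32, limma adjusted p = 0.258). Acly is shown as the gene that feeds both pathways. Its window at chr11:100527951-100528250 (minus strand) holds 1 match to the looser sterol response element, 1 CCAAT box and 4 GC boxes, in capitals.
Acly: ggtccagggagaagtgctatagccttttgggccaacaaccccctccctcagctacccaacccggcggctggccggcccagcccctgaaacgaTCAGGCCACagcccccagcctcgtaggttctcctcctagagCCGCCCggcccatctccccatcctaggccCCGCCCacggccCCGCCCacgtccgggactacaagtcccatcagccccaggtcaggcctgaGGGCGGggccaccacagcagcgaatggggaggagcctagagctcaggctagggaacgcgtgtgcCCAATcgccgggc

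RefSeq promoter windows were held for 26 of the 32 genes, 35 windows in all. The core of the sterol response element was in 1 of these 35 (2.86%), that of Hmgcs1, and in 1.24% of all 32851 windows of the same length. The looser form was in 3 of 35 (8.57%), of Hmgcs1, Acly and Mylip, and in 4.18% of all. A CCAAT box was in 62.9% of the 35 and 37.4% of all, and a GC box in 77.1% and 35.7%. The repeat bound by liver X receptors was in none of the 35 and in 5 of all windows. These are matches of letters and no measure of binding.

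**Figure D2:**
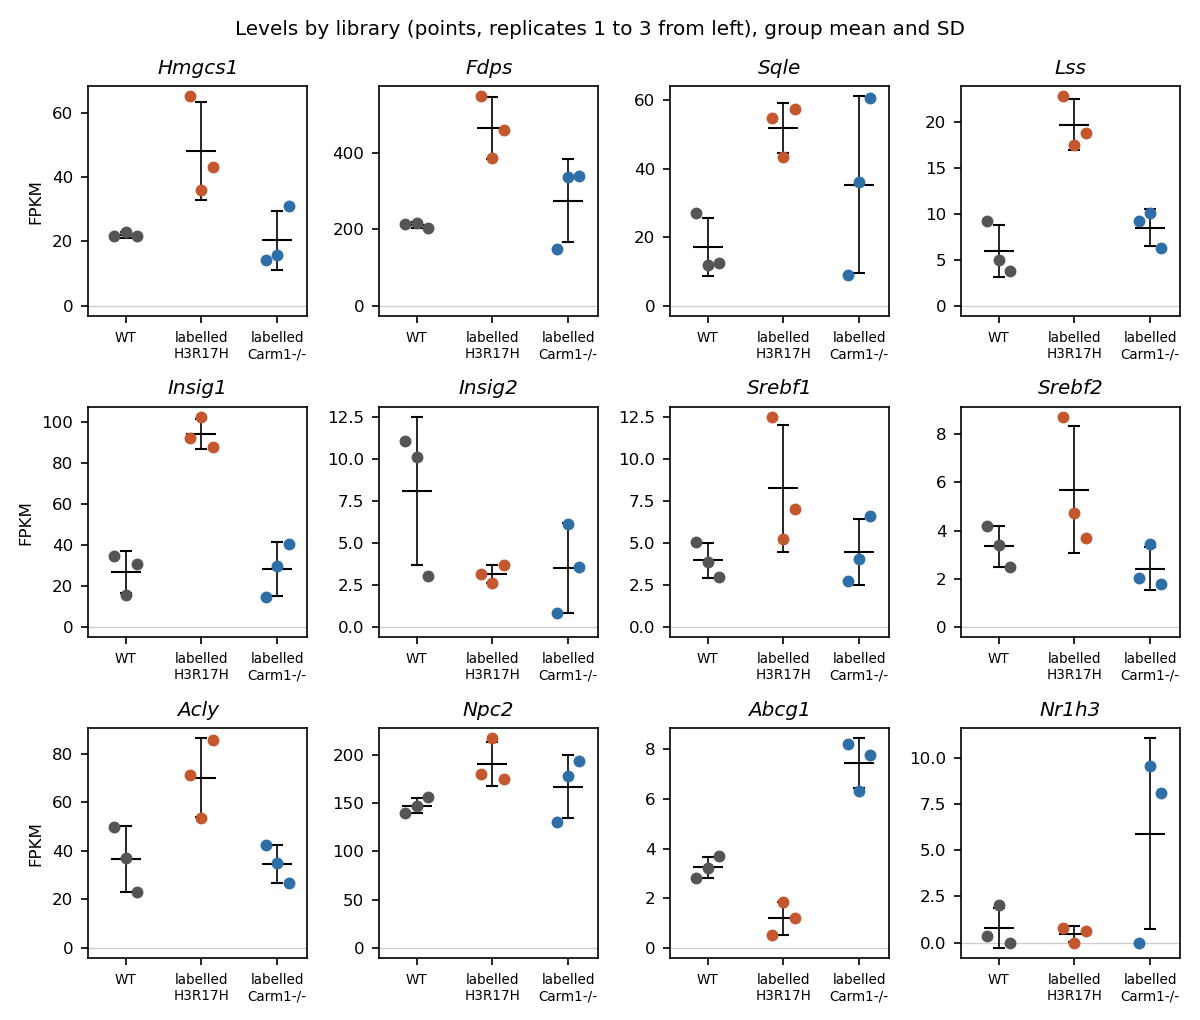
FPKM of 12 of the genes in each library (points, linear axes), where the line is the mean of a group and the whisker its SD (n = 3). For Insig1 and Lss the 3 libraries labelled H3R17H lie above all other 6, and for Abcg1 the 3 groups do not overlap.

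Of the 4 genes of sterol transport and uptake 3 had higher values with the label H3R17H, with a median difference of 0.17, and 1 did not overlap with WT, beside 13.3% of all tested genes. Npc2 (chromosome 12, 84754562 to 84773152, minus strand), which hands cholesterol from the lysosome lumen to Npc1, was at 140, 147 and 156 FPKM in WT, at 180, 217 and 175 FPKM with the label H3R17H and at 130, 178 and 193 FPKM with the label Carm1-/-. The libraries labelled H3R17H were above WT by 0.36 (SE 0.20, limma adjusted p = 0.447). Npc1, the membrane partner of Npc2, ranged from 10.1 to 17.8 FPKM in WT and from 13.4 to 18.4 FPKM with the label H3R17H. Stard4, a cytosolic sterol carrier, was at 6.92, 8.23 and 9.74 FPKM in WT, at 11.1, 9.38 and 9.73 FPKM with the label H3R17H and at 5.38, 4.10 and 11.1 FPKM with the label Carm1-/-, and the groups overlapped. Mylip, a ubiquitin ligase that marks lipoprotein receptors for degradation, was at 2.15, 2.06 and 3.38 FPKM in WT, at 3.35, 0.65 and 1.64 FPKM with the label H3R17H and at 0.40, 1.0 and 3.10 FPKM with the label Carm1-/-. The groups overlapped for Mylip too.

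Among the efflux genes Abcg1 had lower values with the label H3R17H and higher values with the label Carm1-/-. Abcg1 (chromosome 17, 31057675 to 31117988, plus strand), which exports cholesterol to lipoprotein particles, was at 2.82, 3.20 and 3.70 FPKM in WT, at 0.52, 1.84 and 1.21 FPKM with the label H3R17H and at 8.23, 6.34 and 7.79 FPKM with the label Carm1-/-. The 3 groups did not overlap, with WT in the middle. The difference from WT was -1.0 (SE 0.33, limma adjusted p = 0.258) for H3R17H and 0.99 (SE 0.33, limma adjusted p = 0.321) for Carm1-/-. Abca1, the transporter that loads nascent particles, was at 0.15, 0.74 and 0.27 FPKM in WT, at 0.46, 1.08 and 0.54 FPKM with the label H3R17H and at 1.10, 1.02 and 0.42 FPKM with the label Carm1-/-. These are low values that overlapped in all 3 groups. Nr1h2 was at 47.8, 46.0 and 22.1 FPKM in WT, at 65.9, 42.1 and 56.7 FPKM with the label H3R17H and at 56.6, 54.3 and 34.3 FPKM with the label Carm1-/-, and overlapped as well. Nr1h3 (chromosome 2, 91184061 to 91202834, minus strand) was at 0.38, 2.03 and 0 FPKM in WT, at 0.81, 0 and 0.63 FPKM with the label H3R17H and at 0, 9.55 and 8.12 FPKM with the label Carm1-/-. It was thus highest in replicates 2 and 3 labelled Carm1-/- and listed at 0 in replicate 1.

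The test of H3R17H against WT took its spread from all 9 libraries. Fitted on only the groups compared, Fdps (adjusted p = 0.0344), Insig1 (adjusted p = 0.0358), Lss and Sqle (both adjusted p = 0.0425) passed in limma. That is 4 of the 32 genes, all higher, beside 112 higher genes of 11850 (0.945%). Leaving out each of the 6 libraries in turn from that fit left 0 to 2 of the 32 genes past the threshold: Fdps and Insig1 without replicate 3 labelled H3R17H (beside 1.78% of all tested genes called higher), Sqle without WT replicate 1 (beside 0.186%), and none without WT replicates 2 or 3 or without replicates 1 or 2 labelled H3R17H. In the fit of all groups without replicate 1 labelled Carm1-/-, Fdps (adjusted p = 0.0285) and Insig1 (adjusted p = 0.0346) passed in limma, beside 68 higher genes of 11850 (0.574%). Over all alternatives the adjusted p ran from 0.0285 to 0.688 for Fdps, from 0.0288 to 0.688 for Insig1, from 0.0335 to 0.646 for Lss and from 0.0338 to 0.779 for Sqle.

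Setting the label Carm1-/- against WT asks, if the label holds, what changes without the methyltransferase. The synthesis enzymes showed no common direction there: 9 of 18 had higher and 9 lower values, with a median difference of 0.05. Of the 32 genes 17 had higher and 15 lower values, with a median of 0.07, beside 46.3% higher and a median of -0.04 over all tested genes. The libraries did not overlap for Abcg1 and Sc5d on the higher side, 2 of 32 beside 6.91% of all tested genes, and for Mvk on the lower side, 1 of 32 beside 9.71%. No gene of the table passed (0%), and at an unadjusted p under 0.05 limma gave 622 higher and 733 lower genes. Mvk was at 7.87, 11.7 and 4.54 FPKM with the label Carm1-/-, below the lowest WT value of 14.1 FPKM, and differed by -1.37 (SE 0.57, limma adjusted p = 0.405). Sc5d was at 5.74, 5.85 and 5.67 FPKM, just above the highest WT value of 5.53 FPKM, and differed by 0.60 (SE 0.35, limma adjusted p = 0.509).

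Replicate 1 labelled Carm1-/- had Y-linked transcripts and a trophectoderm marker sum of 9411 FPKM, while replicates 2 and 3 had none and sums of 2224 and 2701 FPKM. For the 18 synthesis enzymes it did not stand apart in the median difference from WT, which was -0.07, -0.17 and 0.36 in replicates 1 to 3. Their summed FPKM, which the most abundant enzymes carry, was 711 to 732 in WT and 615, 851 and 1014 in replicates 1 to 3 labelled Carm1-/-, against 1315, 909 and 1171 with the label H3R17H. Without replicate 1, Nr1h3 (difference 2.61, SE 0.50, adjusted p = 0.0247) and Fdft1 (difference 1.49, SE 0.34, adjusted p = 0.0427) passed in limma, 2 of the 32 beside 296 higher genes of 11850 (2.50%). With all 9 libraries their differences were 1.51 (SE 0.81, limma adjusted p = 0.487) and 0.95 (SE 0.45, limma adjusted p = 0.448), and over all alternatives the adjusted p ran from 0.0247 to 0.996 for Nr1h3 and from 0.0427 to 0.993 for Fdft1. Without replicate 1 the label and the Y-linked transcripts cannot be told apart, since all 3 WT libraries had them and the 2 libraries left did not. With all 9 libraries and a term for Y-linked transcripts the differences were 0.58 for Nr1h3 (limma adjusted p = 0.996) and 0.59 for Fdft1 (limma adjusted p = 0.993). Both genes are named here because of this result. Ctsb, which overlaps Fdft1, also had its highest mean with this label. By library the 2 genes ran in opposite order there. Ctsb was at 122, 84.1 and 101 FPKM in replicates 1 to 3 labelled Carm1-/-, and Fdft1 at 13.5, 53.2 and 35.5 FPKM. With replicate 1 left out, 8 of the 32 genes lay above all WT libraries and 4 below, beside 19.6% and 22.8% of all tested genes.

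The 2 edited labels were also set directly against each other. Of the 32 genes 24 had lower values with the label Carm1-/- than with the label H3R17H, the 8 early enzymes and the 5 regulators among them, with a median difference of -0.52 beside -0.01 over all tested genes. All 3 libraries labelled Carm1-/- lay below all 3 labelled H3R17H for 8 of the 32 (Hmgcs1, Pmvk, Idi1, Fdps, Lss, Insig1, Srebf2 and Acly), beside 6.07% of all tested genes. They lay above for Abcg1 alone among the 32, beside 5.13%. None passed, and 0 of 11850 genes did (0%), with 485 higher and 488 lower at an unadjusted p under 0.05 in limma. Insig1 differed by -1.81 (SE 0.39, limma adjusted p = 0.313), Hmgcs1 by -1.24 (SE 0.33, limma adjusted p = 0.411) and Idi1 by -1.25 (SE 0.41, limma adjusted p = 0.485). For Lss the difference was -1.14 (SE 0.34, limma adjusted p = 0.440), for Acly -0.99 (SE 0.32, limma adjusted p = 0.469) and for Srebf2 -0.93 (SE 0.37, limma adjusted p = 0.568). Fdps differed by -0.84 (SE 0.30, limma adjusted p = 0.533), Pmvk by -0.79 (SE 0.26, limma adjusted p = 0.479) and Abcg1 by 1.99 (SE 0.33, limma adjusted p = 0.133). This comparison uses the same libraries labelled H3R17H as the comparison with WT, so the values are given side by side and not as separate evidence.

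**Figure D3:**
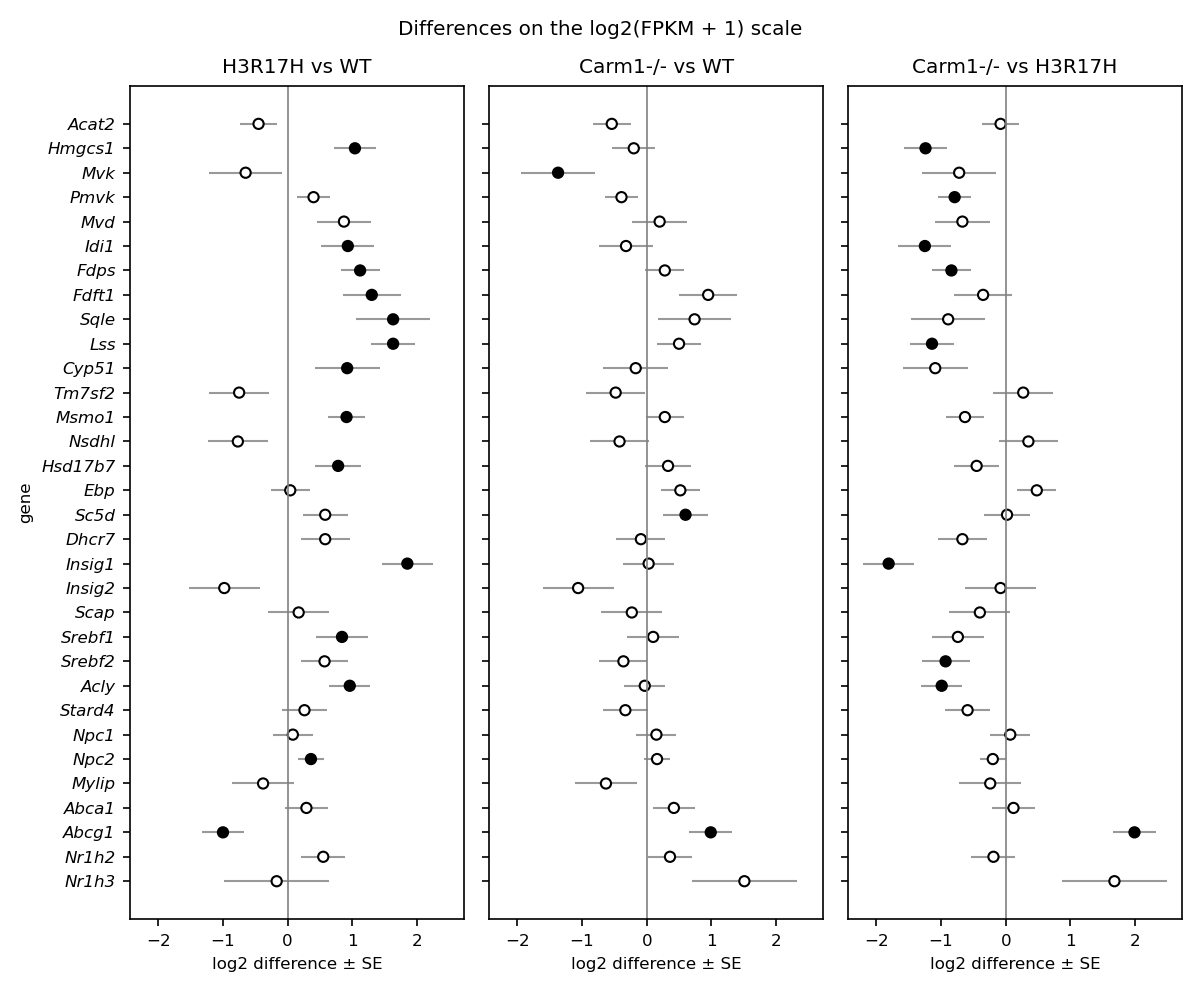
Difference of each of the 32 genes on the log2(FPKM + 1) scale (points) with its SE (lines) from 1 limma fit of 9 libraries, for the 3 comparisons; filled points are genes whose libraries do not overlap between the groups. Filled points number 13 higher and 1 lower for H3R17H vs WT, 2 and 1 for Carm1-/- vs WT, and 1 and 8 for Carm1-/- vs H3R17H.

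Fatty acid synthesis shares the acetyl-CoA supply and the SREBP factors with sterol synthesis, and a list of 17 of its genes was read alongside. In the libraries labelled H3R17H 9 of the 17 had higher and 8 lower values, with a median of 0.23, and none passed. The libraries did not overlap with WT for 6 of the 17 (35.3%) on the higher side and 1 (5.88%) on the lower, beside 13.3% and 15.6% of all tested genes. Fasn, fatty acid synthase, was at 2.82, 1.04 and 1.30 FPKM in WT, at 9.82, 6.81 and 7.58 FPKM with the label H3R17H and at 3.21, 2.26 and 4.09 FPKM with the label Carm1-/-. All libraries labelled H3R17H were above the other 6 (difference from WT 1.78, SE 0.35, limma adjusted p = 0.169). Scd2, a fatty acid desaturase, averaged 37.1 ± 14.5 FPKM in WT, 82.1 ± 10.7 FPKM with the label H3R17H and 35.4 ± 10.6 FPKM with the label Carm1-/- (SD, n = 3). Its relative Scd1 averaged 52.6 ± 5.55, 80.5 ± 14.6 and 51.5 ± 7.24 FPKM. Acaca, which makes malonyl-CoA, averaged 1.58 ± 0.564, 3.07 ± 0.363 and 1.71 ± 0.376 FPKM. Malic enzyme Me1, named after its values were seen, was the gene on the lower side, at 30.2 ± 5.80 FPKM in WT and 18.7 ± 5.43 FPKM with the label H3R17H. With the label Carm1-/- 8 of the 17 had higher and 9 lower values than WT.

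A list of 29 other sterol genes (esterification, processing of SREBP, degradation control, lipoprotein receptors and isoprenoid branches) held 19 tested genes. Of these 9 had higher and 10 lower values with the label H3R17H, with a median of -0.22, and none passed. With the label Carm1-/- 8 had higher and 11 lower values, with a median of -0.08. Soat1, which esterifies cholesterol for storage, had means of 18.5 ± 3.40 FPKM for WT and 9.08 ± 7.78 FPKM with the label H3R17H, and its libraries overlapped. Lbr, a lamin receptor with sterol reductase activity, had means of 21.4 ± 6.43 and 36.0 ± 8.25 FPKM, without overlap. Tmem97, an endoplasmic reticulum sterol-binding protein, had means of 135 ± 15.8 FPKM for WT and 202 ± 1.41 FPKM with the label H3R17H (SD, n = 3), above every WT library.

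**Figure D4:**
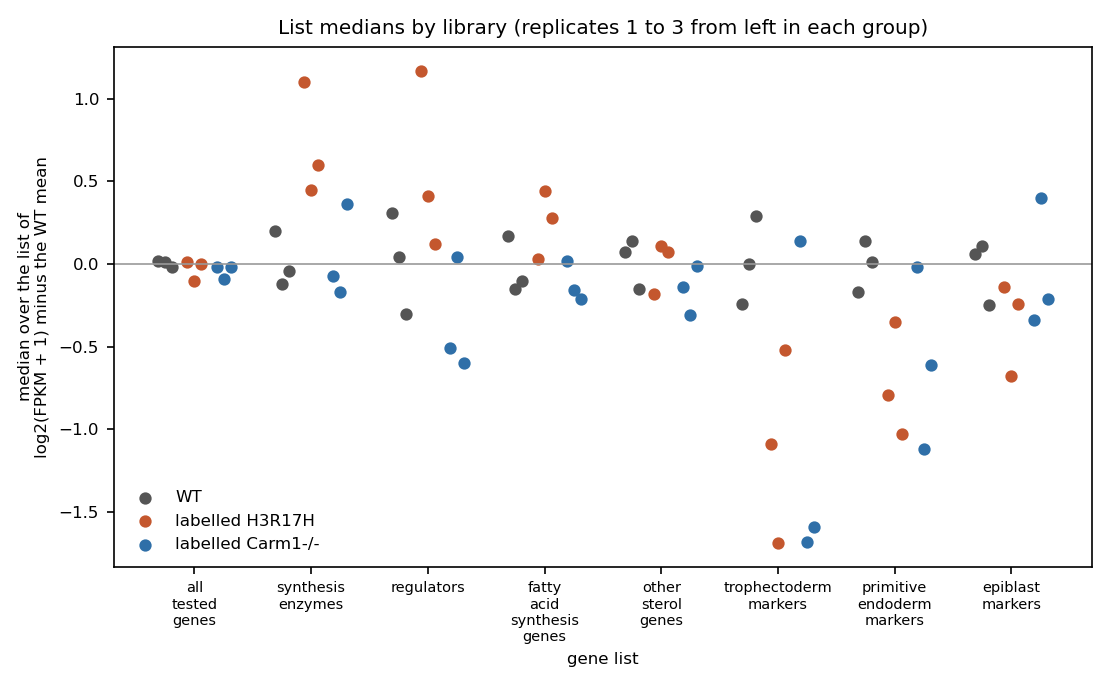
Median of each gene list per library (points), on the log2(FPKM + 1) scale relative to the mean of WT; colours are labels. The synthesis enzymes lie at 1.10, 0.45 and 0.60 with the label H3R17H and at -0.07, -0.17 and 0.36 with the label Carm1-/-, and the trophectoderm markers are low in all libraries labelled H3R17H and in replicates 2 and 3 labelled Carm1-/-.

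Other properties of the libraries moved with the label. Of the 16 tested markers of trophectoderm, the outer layer of the blastocyst, 12 had lower values with the label H3R17H. The summed level of the 17 markers measured was 5868 to 8997 FPKM in WT, 1795 to 4872 FPKM with the label H3R17H and 2224 to 9411 FPKM with the label Carm1-/-. The transcription factors Gata2 and Elf5 were low in WT, at 1.62 to 3.91 and 0.38 to 1.82 FPKM. Both were at 0 in replicate 2 labelled H3R17H and in replicates 2 and 3 labelled Carm1-/-. With the label H3R17H Elf5 was also at 0 in replicate 1 and Gata2 in replicate 3. The keratins Krt8 and Krt18 stayed abundant but were lower with the label H3R17H, without overlap. Krt8 ranged from 2229 to 2756 FPKM in WT and from 518 to 1994 FPKM there. Krt18 ranged from 2612 to 4637 and from 620 to 2243 FPKM. Another keratin of the list, Krt7, was low and overlapped, at 3.14 to 12.24 FPKM in WT and 2.55 to 16.35 FPKM with the label H3R17H. Of 13 tested primitive endoderm markers 10 had lower values with the label H3R17H, and the sum of the 14 measured was 222 to 300 FPKM in WT, 172 to 199 FPKM there and 119 to 420 FPKM with the label Carm1-/-. Zeros among them with the label H3R17H were Lama1 and Hnf4a in replicate 1, Lama1 and Sox7 in replicate 2, and Gata4, Sox17 and Amn in replicate 3. Sox7 was also at 0 in WT replicate 1 and Amn in WT replicates 2 and 3. Amn was at 2.61 and 4.04 FPKM in replicates 1 and 2 labelled H3R17H. Replicates 2 and 3 labelled Carm1-/- held 2 zeros each. Of 14 tested epiblast markers 5 had higher and 9 lower values with the label H3R17H, with a median of -0.30. Their sum, which the most abundant genes carry, was 569 to 744 FPKM in WT, 682 to 737 FPKM with the label H3R17H and 710 to 769 FPKM with the label Carm1-/-. The 3 measured oocyte markers summed to 0.274 to 1.31, 0.18 to 1.32 and 2.27 to 22.1 FPKM. Ribosomal protein genes took 9.56% to 11.7% of the total in WT, 13.2% to 14.5% with the label H3R17H and 8.55% to 14.9% with the label Carm1-/-. The part of these in the results above was not tested. Replicates 2 and 3 labelled Carm1-/- had trophectoderm sums of 2224 and 2701 FPKM and ribosomal shares of 14.9% and 13.1%. The 18 synthesis enzymes there had a median difference from WT of -0.17 and 0.36 and summed to 851 and 1014 FPKM. Their sum was 711 to 732 FPKM in WT. In a bulk library fewer cells of a type and less RNA per cell cannot be told apart.

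Every WT library had Y-linked transcripts, so sex and label are in part confounded. Replicate 1 labelled H3R17H, which also had them, held the highest list median of the 32 genes, 0.76, against 0.40 and 0.45 in replicates 2 and 3 and -0.11 to 0.20 in WT. With a term for Y-linked transcripts the median difference between H3R17H and WT was 0.74, and the differences of Insig1, Lss, Fdps and Sqle were 1.43, 1.80, 0.85 and 0.92. Their adjusted p in limma was 0.539 for Lss, 0.688 for Insig1 and Fdps and 0.779 for Sqle. That term rests on replicate 1 of each edited label, and the one labelled H3R17H also had Xist at 4.84 FPKM.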

How the data were processed

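The 9 RNA libraries of mouse embryos were grouped by title, 3 per label. The authors deposited FPKM values in 1 table with a library in each column. Bowtie 0.12.2, mm10 and GRCm38 stand in the submitters' processing notes without their roles. The quantifier, annotation and strand setting were not given in the sources used here. Because FPKM scales by the library total, abundant genes can shift the others. Since the depth is unknown, counting intervals were left out.

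Genes reaching 1 FPKM in 3 or more libraries were tested as log2(FPKM + 1), a scale that understates the change of low genes, in 1 limma fit with an intensity trend across all genes and libraries, with Benjamini-Hochberg adjustment and a threshold of 0.05. The fit was tested on simulated data. The 32 genes and all lists were chosen with earlier results of these data known. All 32 were named; a difference is printed where libraries did not overlap or the unadjusted p was under 0.05, and for 2 genes that passed in an alternative. Up to 4 genes of other lists were named by smallest p, of which 1 is not reported here. The alternatives tried were pseudocounts of 0.1 and 5, testing without a filter or only genes with a mean of 5 FPKM or more, scaling by median-of-ratios or quantiles, array quality weights, a fit without the trend, a fit of only the groups compared, a replicate block, a term for Y-linked transcripts and each library left out. Positions come from GENCODE M21 and promoters from RefSeq (GRCm38.p6). R 4.3.3, limma 3.58.1, Python 3.11.15, pandas 2.3.3, numpy 2.4.6 and matplotlib 3.10.9 were used.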

Additional observations from a re-analysis of the deposited data

Results flagged for a closer look

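For 2 of the 32 genes all libraries of one edited label lay on one side of the WT mean and all libraries of the other label on the opposite side. The share of all tested genes that do so is not given here, so the count says nothing about the 32 genes as a set. Abcg1 was below the WT mean in 3 of 3 libraries labelled H3R17H and above it in 3 of 3 labelled Carm1-/-, and the labels differed by 1.99 on the log2 scale (SE 0.33, limma adjusted p = 0.133). Pmvk, a mevalonate pathway kinase, was above the WT mean in 3 of 3 libraries labelled H3R17H and below it in 3 of 3 labelled Carm1-/-, and differed by -0.79 (SE 0.26, limma adjusted p = 0.479). Neither difference passed. The groups of 3 libraries are too small for a test of single outlying libraries.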

How the results depend on the processing

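Every named difference kept its sign under each alternative run on it. For H3R17H vs WT, 0 genes passed over all 9 libraries; 1 passed with a pseudocount of 5, 192 with array quality weights (3 of the 32 genes: Fdps, Insig1 and Lss) and 240 with only the groups compared (4 of the 32). Leaving out each library gave 0 to 125 genes, and 0 to 2 of the 32; with only the groups compared (chosen after seeing the data) the counts were 37, 1 and 2 genes without WT replicates 1, 2 and 3 and 38, 6 and 510 without replicates 1, 2 and 3 labelled H3R17H, with 0 to 2 of the 32. The median difference of the 32 genes, 0.56, was 0.37 with a pseudocount of 5, 0.74 with a term for Y-linked transcripts and 0.38 to 0.70 with a library left out, 0.38 being without WT replicate 3. For Carm1-/- vs WT, 1 gene passed with a pseudocount of 0.1 and 1 with array quality weights. Leaving out a library gave 0 to 549 genes and 0 to 2 of the 32, and with only the groups compared 0 to 429 and 0 to 1; the highest counts were without replicate 1 labelled Carm1-/-. The median of the 32 genes, 0.07, ran from -0.07 without WT replicate 3 to 0.23 without WT replicate 1. For Carm1-/- vs H3R17H, 1 gene passed with a pseudocount of 0.1 and 1 with 5, 2 with median-of-ratios scaling, 2 with quantile normalization and 3 with no intensity trend; leaving out a library gave 0 to 10, and 0 to 1 with only the groups compared. The median of the 32, -0.52, was -0.34 with a pseudocount of 5 and -0.61 to -0.27 with a library left out. The count of higher values, 8, was 4 of the 23 genes left by a mean of at least 5 FPKM and 5 to 9 with a library left out. The cause of these shifts was not tested. The other alternatives changed no count of the 32 genes by over 1.5 times. Same-numbered libraries did not deviate together (r of -0.05 to 0.18 over 9 pairs, above 0.1 in 1), so the number pairs nothing; with the replicate block 0 genes passed in each comparison and the medians were 0.56, 0.07 and -0.52. Depth is unknown, so low genes such as Abca1 and Nr1h3 carry an error that cannot be given.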
